A study of Mus musculus with 4 samples.

Results

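The clustered protocadherins were 57 protein-coding genes of mouse chromosome 18, chosen by their RefSeq symbols (Pcdha, Pcdhb and Pcdhg) from 21887 protein-coding genes. No measured value entered this rule, but earlier results of these data were known when the members were chosen. They comprised 14 alpha, 22 beta and 21 gamma genes and spanned 0.912 Mb of the mm10 genome, from the lower coordinate of Pcdha1 (36930285) to the upper coordinate shared by several gamma genes (37841873). Peaks with a summit inside a member or within 5 kb of one were counted as peaks of the cluster: 23 of 89809 and 14 of 69359 in the mTEClo lists, and 14 of 73510 and 22 of 85308 in the mTEChi lists. The pseudogene Pcdhgb8 and 3 read-through gene models that join alpha to gamma exons (Gm37013, Gm38666 and Gm38667) were not members.

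The 4 libraries came from medullary thymic epithelial cells of mice aged 4 to 5 weeks, sorted as mTEClo or mTEChi, with 2 libraries of each. Both groups were wild type at Trp53 (labelled Trp53-WT), neither carried a transgene or treatment by the labels, and 500000 cells were used per condition. The names usually refer to low or high surface MHC class II, and Aire-expressing cells belong to the hi group. Below, library order means mTEClo replicate 1, mTEClo replicate 2, mTEChi replicate 1, mTEChi replicate 2. CUT&RUN, the assay, recovers DNA released by a nuclease tethered to an antibody on chromatin. In the titles the antibody is one against p53, but in the protocol it is one against BAF155, a chromatin remodeller subunit, so the marked protein is not settled by the labels. No library with a control antibody was analysed here.

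Clustered protocadherins are cell adhesion proteins best known from neurons, where each cell switches on its own small set and so carries a surface identity that its own branches recognise. Each alpha or gamma gene has its own promoter and a large variable first exon, spliced to constant exons shared by the whole alpha or the whole gamma group. Each beta gene is a single exon. In neurons most alpha, beta and gamma promoters are chosen at random by cell, through DNA methylation and loops made by CTCF and cohesin, whereas the C-type genes at the end of the alpha and gamma groups (Pcdhac1, Pcdhac2, Pcdhgc3, Pcdhgc4 and Pcdhgc5) are used more regularly. Because exons are shared, the alpha gene intervals ended within 1240 bp of each other and the gamma intervals within 10 bp. The lower coordinate is therefore the end that is private to each alpha and gamma gene and is called its start here. The beta genes were read in the same direction.

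One member start carried a peak in every library: that of Pcdhgc3, a C-type gamma gene (chromosome 18, 37806410 to 37841873). Relative to the start, with negative values before it, its summits lay at -73, -114, -103 and 99 bp in library order. All 4 fell within 213 bp of each other and formed the region 37806146 to 37806659. The authors' scores, read as −log10 of a p or q value and comparable only within a list, were 10.0, 6.0, 2.55 and 4.34. In their own lists these scores stood at the 96.3rd, 88.6th, 12.8th and 73.8th percentile. The peak was thus among the stronger ones of both mTEClo lists and among the weakest of mTEChi replicate 1.

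Pcdhgc4, the next C-type gene (37815079 to 37841873), had a summit within 1 kb of its start in 3 libraries. The nearest summits lay at -548 bp in mTEClo replicate 1, -513 bp in mTEChi replicate 1 and 184 bp in mTEChi replicate 2. The nearest summit of mTEClo replicate 2 was 7813 bp away. The region before the start (37814381 to 37814957) had scores of 3.17 in mTEClo replicate 1, 8.45 in mTEChi replicate 1 and 2.12 in mTEChi replicate 2, at the 17.4th, 92.8th and 5.80th percentile of their lists. Its strongest peak was therefore in mTEChi, in the library where the Pcdhgc3 peak was weak.

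Pcdhgc5, the last C-type gene (37819546 to 37841873), had none at its start: the nearest summits lay at -5015, 3346, 3280 and 3460 bp in library order. The summits after the start formed 1 region inside the gene interval (37822676 to 37823156). Its scores were 8.06, 6.35 and 2.83, at the 96.3rd, 87.7th and 17.0th percentile, and no peak of mTEClo replicate 1 was in it. These are the 3 cluster regions found in more than 2 libraries, and all lay at or after the Pcdhgc3 start.

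**Figure D1:**
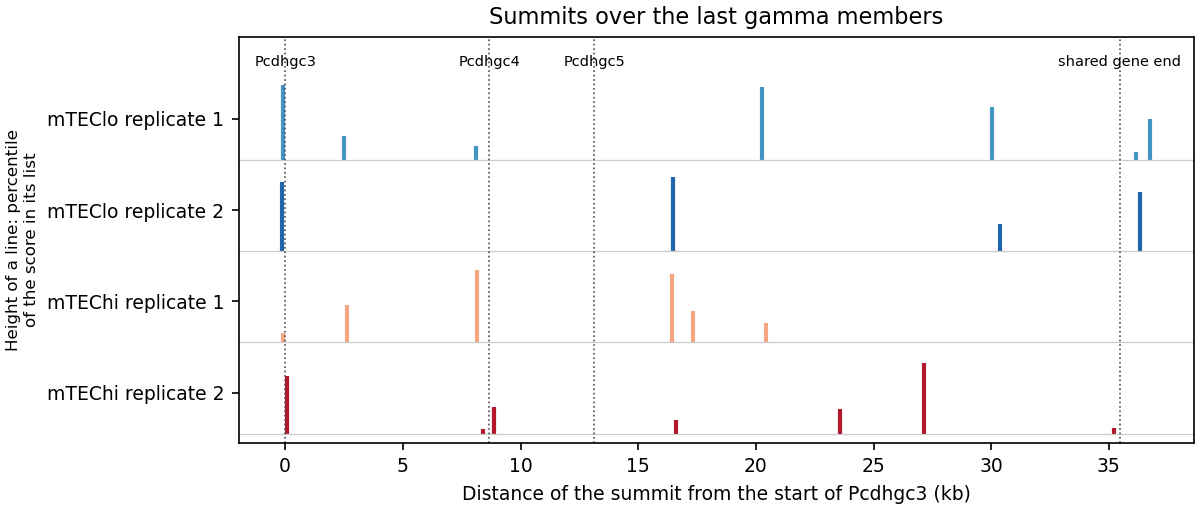
Summits from 1 kb before the Pcdhgc3 start to the end of the gamma genes, as distance from that start in kb, with 1 row per library. The height of a line is the percentile of the peak's score within its own list; the Pcdhgc3 start has a line in every row, and the region 3280 to 3460 bp after the Pcdhgc5 start has one in 3 rows.

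The C-type alpha genes differed in this respect. Pcdhac2 (37143678 to 37187663) had a summit 346 bp after its start in mTEClo replicate 1 (score 3.32), and the mTEChi summits lay farther in, at 2381 bp in replicate 1 and 1428 bp in replicate 2. These summits did not overlap each other. Pcdhac1 (37090136 to 37187657) had no summit within 5 kb of its start in any library. Of 5 C-type genes, 3 had a summit within 1 kb of the start in at least 1 library and 2 in at least 3 libraries. Of the 52 other members, 6 had one in at least 1 library, 1 in 2 libraries and 0 in 3. In pairs of a gene and a library this was 8 of 20 for the C-type genes and 7 of 208 for the others. Of other protein-coding genes with a known strand, 58% had such a summit in at least 1 library. In library order 42.6%, 31.1%, 34.2% and 32.7% of them had one. Of the 8 C-type pairs, Pcdhgc3 gave 4, Pcdhgc4 gave 3 and Pcdhac2 gave 1, while Pcdhac1 and Pcdhgc5 gave 0. The libraries of 1 gene are not separate units, so the pairs give no share for the class. The contrast between C-type and other members was drawn with the positions known and was not tested.

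Among the 12 remaining alpha genes, Pcdha4 (36952689 to 37187657) was the 1 with a summit near the start in more than 1 library. It had summits 574 and 751 bp after the start in mTEClo replicates 1 and 2, with scores of 4.60 and 6.57 (57.9th and 92.0th percentile). In mTEChi the nearest summits were at -32948 and 5755 bp. The peak pair, from 36953113 to 36953590, thus belonged to mTEClo alone in these lists. Pcdha9 had a summit 202 bp after its start in mTEClo replicate 1 alone (score 7.39, 90.2nd percentile). The mTEChi replicate 2 summit at the same gene lay 1213 bp after the start, apart from it. Pcdha1, the first gene of the cluster, had its nearest summit of any list at -10544 bp, and Pcdha6 and Pcdha7 also had none within 5 kb of the start in any list.

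The 18 remaining gamma genes each had at most 1 library with a summit within 1 kb of the start. These were Pcdhgb1 in mTEClo replicate 1 (436 bp after the start), and in mTEChi replicate 2 Pcdhgb6 (992 bp after) and Pcdhga12 (539 bp after). Pcdhga1, the first gamma gene, had its nearest summits at 5289, -5932, 61390 and 60166 bp in library order. A stretch of 41.2 kb from 37680708 to 37721941, with the starts of 6 gamma genes from Pcdhga4 to Pcdhgb4, had no summit in any list.

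The beta genes, single-exon genes of 2340 to 5271 bp, had the fewest peaks. In and around the 22 genes lay 4, 3, 2 and 1 peaks in library order, so both mTEClo libraries had more than both mTEChi libraries, a difference that was not tested. None of these 10 peaks overlapped a peak of another library, and the highest score stood at the 80.7th percentile of its list. Of the 10, 8 lay inside a beta gene, in 7 different genes. Pcdhb2 had summits in 2 libraries, 2369 bp after its lower coordinate in mTEClo replicate 1 and 1164 bp after it in mTEChi replicate 1, and these did not overlap. Pcdhb10 was the 1 beta gene with a summit within 1 kb of the start, 977 bp after it in mTEChi replicate 2 (score 2.45, 11.4th percentile). For 10 beta genes, among them Pcdhb1, Pcdhb6, Pcdhb7 and Pcdhb8, no list had a summit within 5 kb of either end, and Pcdhb22, the last of the group, was another of these. The longest stretch inside the cluster's gene groups without a summit in any list was 90.3 kb, from 37322390 to 37412651, and it held the starts of Pcdhb6 to Pcdhb10.

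**Figure D2:**
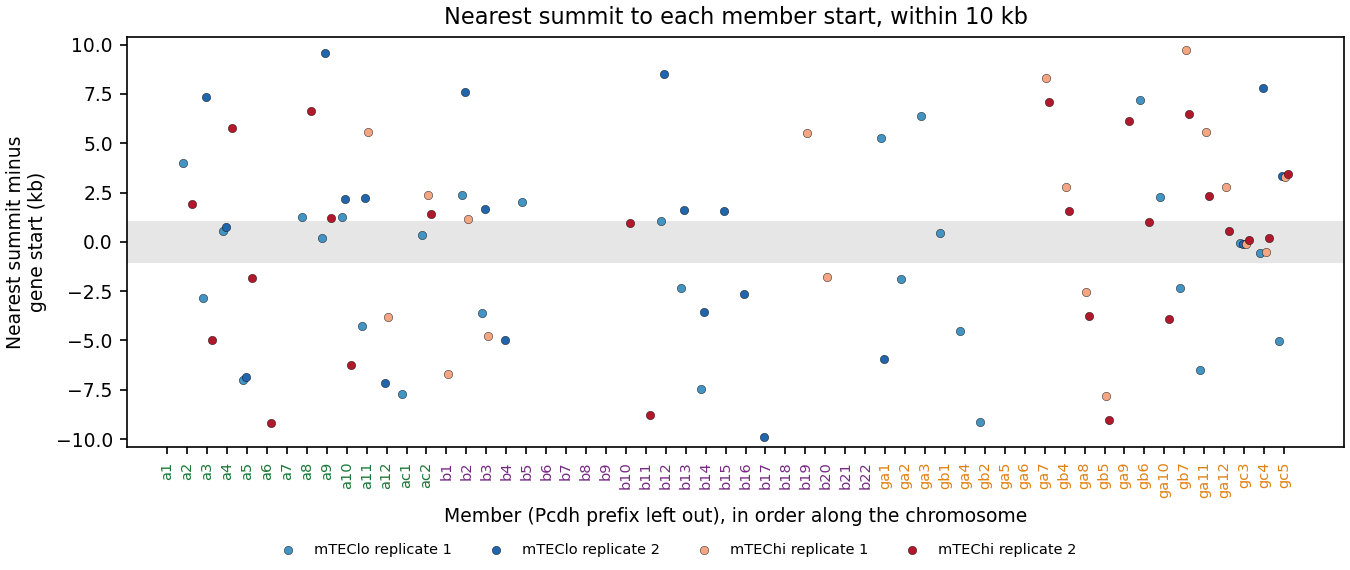
Distance in kb from each member's start to the nearest summit of each library (points, coloured by library), for summits within 10 kb, with members in chromosomal order and the 1 kb zone in grey. The Pcdhgc3 points of all 4 libraries lie together in the zone, and most beta genes have no point in it.

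Counted over all members, few starts carried a peak. In library order, 6, 2, 2 and 5 of the 57 members (10.5%, 3.51%, 3.51% and 8.77%) had a summit within 1 kb of the start. Of 17492 other protein-coding genes with a known strand, 42.6%, 31.1%, 34.2% and 32.7% had such a summit. Both mTEClo libraries called 2 members (Pcdha4 and Pcdhgc3), against 24.3% of the other genes, and both mTEChi libraries 2 members (Pcdhgc3 and Pcdhgc4), against 23.7%. All 4 libraries called 1 member, 1.75%, against 16% of other genes, and at least 1 library called 9, 15.8%, against 58%. Pcdha4 was the 1 member with both mTEClo and no mTEChi library (background 3.38%), and 0 members had the opposite pattern (background 1.64%). The members' shares were below the background in every one of these counts. Members are near-identical paralogs in part of their length, and whether reads from such stretches were kept by the authors' alignment was not tested. On average 4 ± 2.83 members were called in mTEClo and 3.5 ± 2.12 in mTEChi (SD, n = 2 each), which the replicate spread covers (p = 1, exact permutation, two-sided). That test cannot give a p below 0.333 for 2 libraries against 2, and so cannot reach 0.05.

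A window of 5 kb around either gene end counts a peak at a shared end for many members at once. In library order it called 34, 31, 12 and 36 members (59.6%, 54.4%, 21.1% and 63.2%), against 68.5%, 59%, 59.2% and 63.4% of 21830 other protein-coding genes. Every one of the 21 gamma genes was called in mTEClo replicate 1, mTEClo replicate 2 and mTEChi replicate 2, since peaks at the common end of the gamma intervals count for every gamma gene, and 6 were called in mTEChi replicate 1. In the same way all 14 alpha genes were called in mTEChi replicate 2 from 1 summit at 37190511, past the common alpha end. Means were 32.5 ± 2.12 for mTEClo and 24 ± 17.0 for mTEChi (SD, n = 2 each), with p = 1 by exact permutation. By this rule both mTEClo libraries called 27 members and both mTEChi libraries 8, against 50.8% and 47.6% of other genes, and all 4 called 6, against 35.7%. At least 1 library called 47 (82.5%), against 84.5%. Both mTEClo and no mTEChi library called 1 member (1.75%), against 3.5%, and the opposite pattern was seen for 1 (1.75%), against 2.2%. Measured from the private start alone, a rule added after seeing the data, 5 kb gave 20, 11, 11 and 15 members. These are 35.1%, 19.3%, 19.3% and 26.3%, against 59.5%, 47.7%, 49.9% and 52.2%. Member starts lie as little as 4154 bp apart, so 1 summit can still count for neighbouring members by this rule. Both mTEClo libraries then called 6 (10.5%), both mTEChi libraries 7 (12.3%) and all 4 called 1 (1.75%), against 38.7%, 36.8% and 25.5% of other genes. At least 1 library called 34 (59.6%), against 78.8%. Both mTEClo and no mTEChi library called 4 members (7.02%) from the start, against 4.32%. Both mTEChi and no mTEClo library called 3 (5.26%), against 2.6%, so these shares were above the background. Among the latter, Pcdhgb4 and Pcdhga8 were called from the same summits, at 37721941 and 37723165. In mTEChi replicate 1 both rules thus gave near-equal counts, 12 by either end and 11 by the start, and the counts of the other libraries fell from 34, 31 and 36 to 20, 11 and 15. Of gamma genes both mTEClo libraries called 21 by either end and 1 by the start, and both mTEChi libraries called 6 by either rule. From the start, 23 members (4 alpha, 11 beta and 8 gamma) had no summit within 5 kb of the start in any library.

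At the common gamma end itself, the summits at 37842566 and 37842712 of the mTEClo lists formed a region past the gene interval (scores 2.79 and 4.93) without an mTEChi peak. mTEClo replicate 1 had a further summit at 37843171, and mTEChi replicate 2 had one just inside the end, at 37841625. The neighbouring gene Diaph1, which encodes a formin that nucleates actin filaments, has its lower coordinate at 37843601 and its upper one at 37935622. The lower coordinate is not taken as its start here. Its interval held 6, 5, 8 and 8 peaks in library order.

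Peak density was lowest in the beta windows in every library. The windows around the members covered 0.661 Mb and held 34.8, 21.2, 21.2 and 33.3 peaks per Mb in library order. Chromosome 18 as a whole held 34.6, 28.1, 29.0 and 33.3, and the intervals of other protein-coding genes, widened by the same 5 kb, held 46.2, 35.3, 37.0 and 43.0. The cluster stood at 0.573 to 0.774 times those gene intervals. The beta windows, with 19.7, 14.8, 9.87 and 4.93 peaks per Mb, stood at 0.115 to 0.427 times. The gamma window held 52.6, 21.0, 47.3 and 68.4 per Mb, above the beta windows in every library and above other genes in 3 of 4. Its peaks were concentrated at its end: 7, 4, 6 and 7 lay from 1 kb before the Pcdhgc3 start on. That stretch, delimited after its regions were seen, held 169, 96.5, 145 and 169 per Mb. The gamma window before it, with the starts of 18 of 21 gamma genes, held 3, 0, 3 and 6 peaks. The alpha window held 33.5, 26.1, 11.2 and 29.8. The order of alpha and gamma was turned in mTEClo replicate 2. These densities come from between 1 and 13 peaks per group and library, and they describe these libraries without a test.

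**Figure D3:**
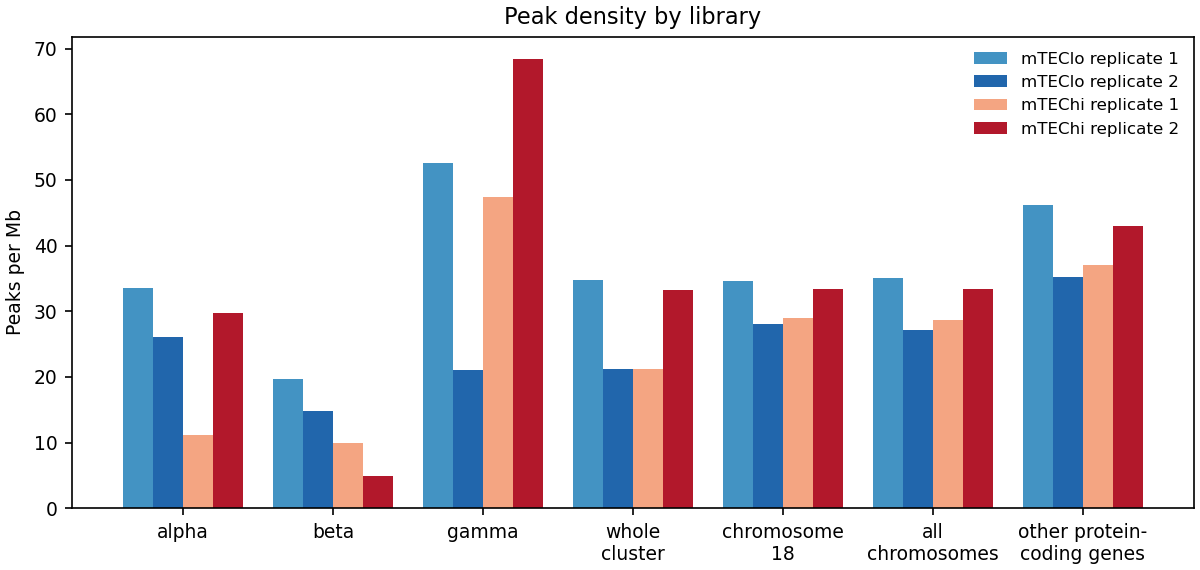
Peaks per Mb in each library (bars) for the alpha, beta and gamma windows, the whole cluster, chromosome 18, all chromosomes and the intervals of other protein-coding genes, all gene windows widened by 5 kb. Beta bars run from 4.93 to 19.7 peaks per Mb and are the lowest group in every library.

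The number of cluster peaks in the full lists did not separate the states. It was 18.5 ± 6.36 for mTEClo and 18 ± 5.66 for mTEChi (SD, n = 2 each), a gap well inside the replicate spread (p = 1, exact permutation). As a share of each list the cluster held 0.0256%, 0.0202%, 0.0190% and 0.0258% in library order. The means were 0.0229% ± 0.00384 and 0.0224% ± 0.00477 (SD, n = 2 each; p = 1, exact permutation). In each state the longer list held the larger count. By group the states were mixed too: alpha had 9 and 7 peaks in mTEClo and 3 and 8 in mTEChi, and gamma had 10 and 4 in mTEClo and 9 and 13 in mTEChi.

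Most peaks in the cluster were of ordinary strength. The median cluster peak stood at the 44.6th and 51.2nd percentile of the mTEClo lists and at the 48.2nd and 42.2nd percentile of the mTEChi lists, near the middle of each. The highest cluster scores were 10.0 and 8.06 in mTEClo and 8.45 and 5.68 in mTEChi. Of the cluster peaks, 3, 3, 1 and 1 were in the upper 10% of their lists, in library order. Those of mTEClo lay at Pcdhgc3, at Pcdha9 and 7108 bp after the Pcdhgc5 start in replicate 1, and at Pcdha4, inside the Pcdhac2 interval and 3346 bp after the Pcdhgc5 start in replicate 2. Those of mTEChi lay before Pcdhgc4 in replicate 1 and 14001 bp after the Pcdhgc5 start in replicate 2.

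Summits were denser in the first 3 kb after a member start than in the rest of the windows. Of the 73 cluster peaks of all lists, 32 (43.8%) lay there, in 25.9% of the window length. This zone held 64.3, 35.1, 29.2 and 58.5 peaks per Mb in library order, which is 1.59 to 2.63 times the rest of the windows. Within 1 kb to either side of a start lay 16 of the 73 (21.9%), in 17.2% of the length. The 1 kb zone and the 3 kb zone overlap just after a start, so their counts are not separate. The zone of 3 kb was chosen after the positions were seen, and the gene table holds no exons, so whether these summits lie in the variable exons was not tested.

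**Figure D4:**
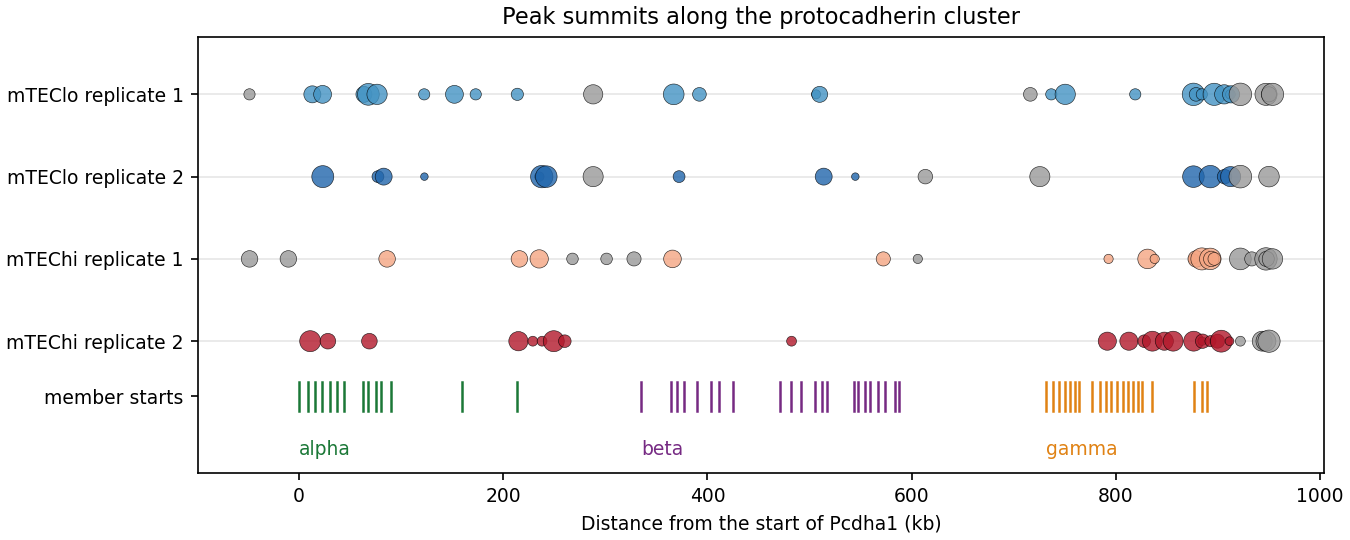
Summits of each library along the cluster, as distance in kb from the Pcdha1 start, with point size rising with the percentile of the score in its list. Grey points lie more than 5 kb from a member, and ticks mark the 57 member starts; points crowd at the end of gamma in all rows and are sparse over beta.

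Merging the lists gave 59 regions in the cluster, of which 49 (83.1%) had a peak in 1 library, 7 (11.9%) in 2, 2 (3.39%) in 3 and 1 (1.69%) in all 4. Over all chromosomes the shares were 85.4%, 9.67%, 2.98% and 1.99% of 259773 regions. The cluster as a whole was thus close to the genome in sharing. Summits within a region of 2 or more libraries lay 105 to 288 bp apart. Of the 10 such regions, 4 lay in alpha, 0 in beta and 6 in gamma. All 6 of gamma lay between 1 kb before the Pcdhgc3 start and the end of the gamma window, a stretch of 41.5 kb that makes up 6.27% of the window length.

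In that stretch 5 of 7, 3 of 4, 5 of 6 and 3 of 7 peaks in library order overlapped a peak of another library. The shares were 71.4% (95% Wilson interval 35.9 to 91.8), 75% (30.1 to 95.4), 83.3% (43.6 to 97.0) and 42.9% (15.8 to 74.95). In the rest of the cluster they were 12.5% (3.50 to 36.0), 40% (16.8 to 68.7), 12.5% (2.24 to 47.1) and 6.67% (1.19 to 29.8). For whole lists they were 31.6%, 32.4%, 31.9% and 25.8%. The end of gamma was above its list in every library and the rest of the cluster below it in 3 of 4, the exception being mTEClo replicate 2. Sharing is mutual, and the 16 shared peaks of the stretch came from 6 regions, each counted in every library that held it. The libraries' shares are therefore not independent of each other. The intervals cover counting error only and treat peaks as independent, and the stretch was delimited after its regions were seen. Over the whole cluster, sharing was 40.2% ± 13.8 for mTEClo and 30.5% ± 17.4 for mTEChi (SD, n = 2 each; p = 0.667, exact permutation). Adjusted over the 5 comparisons between the states (Benjamini-Hochberg), every exact p was 1.

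**Figure D5:**
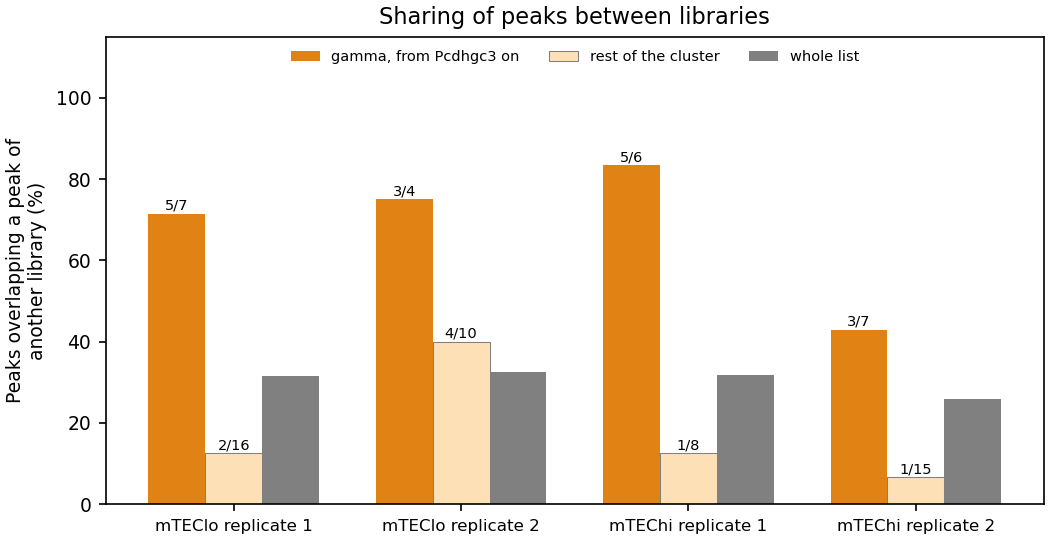
Percent of peaks in each library that overlap a peak of another library by at least 1 bp, for the gamma stretch from Pcdhgc3 on, the rest of the cluster and the whole list, with counts above the cluster bars. The orange bars stand above the grey ones in all 4 libraries.

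The other regions found in 2 libraries had no common partner. In gamma, mTEClo replicate 1 and mTEChi replicate 1 shared 1 region 2504 to 2625 bp after the Pcdhgc3 start (scores 3.62 and 3.62) and 1 between 7108 and 7289 bp after the Pcdhgc5 start (8.63 and 3.06). In alpha, between Pcdhac2 and the common end, mTEClo replicate 2 shared a region with mTEChi replicate 1 at 37165276 to 37165681 (2.62 and 4.08) and another with mTEChi replicate 2 at 37167781 to 37168369 (7.69 and 2.45). Between the Pcdha12 and Pcdhac1 starts both mTEClo libraries had a peak at 37052624 to 37053142 (3.17 and 2.23), at the 17.4th and 2.90th percentile. Regions with both mTEClo libraries and no mTEChi library thus numbered 3 of 59 (at Pcdha4, after Pcdha12 and past the gamma end), and those of the opposite kind 0. Over all chromosomes 2.75% and 1.83% of regions were of these kinds. Of mTEClo replicate 1 peaks in the cluster, 17.4% overlapped one of mTEClo replicate 2, and counted the other way 28.6% did. Of mTEChi replicate 1 peaks, 21.4% overlapped one of mTEChi replicate 2, and counted the other way 13.6% did. Between states this share, counted from the mTEClo library, ran from 8.70% to 21.4%, so libraries of 1 state were not set apart from the others here. Over whole lists, counted from replicate 1 or from the mTEClo library, the shares were 18.4% to 18.5% within states and 14.4% to 16.7% between them. Counted the other way they were 23.8% and 15.8% within states and 11.7% to 20.3% between them.

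The surroundings held further regions. The 66.1 kb between the alpha and beta windows held 1, 1, 3 and 0 peaks in library order, so mTEChi replicate 1 had the most. In this gap, where an enhancer of the alpha genes known as HS5-1 is described downstream of the constant exons, both mTEClo libraries had a peak at 37218126 to 37218466 (scores 5.12 and 4.93), 29379 bp past the last alpha end, and the 3 peaks of mTEChi replicate 1 lay elsewhere in the gap. The files give no enhancer coordinates, so whether the peaks lie in it was not tested. In the 130 kb between the beta and gamma windows lie Taf7, a gene of a general transcription factor subunit, and Slc25a2, a mitochondrial carrier gene. Neither had a summit inside in any list. Past the gamma window, inside Diaph1, a region found in all 4 libraries (37852093 to 37852448) had scores of 11.2, 10.3, 6.93 and 2.45. The 50 kb past gamma held 7 regions, 4 of them in 2 or more libraries.

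Protocadherin genes elsewhere in the genome do not share constant exons. Of 12 (Pcdh1 to Pcdh20), both mTEClo and both mTEChi libraries each called 5 within 5 kb of an end (41.7%), and 4 were called in all 4 libraries: Pcdh1, Pcdh8, Pcdh10 and Pcdh17. Pcdh11x and Pcdh19 were called in none. Of 9 with a known strand, 1 (Pcdh17) had a summit within 1 kb of the start in all 4 libraries. Of 24 genes for regulators of the cluster, both mTEClo libraries called 15 (62.5%) and both mTEChi libraries 13 (54.2%) within 5 kb of an end, and 9 were called in all 4 (37.5%). The 9 included Ctcf, the gene of the insulator protein, the cohesin genes Rad21 and Smc3, the cohesin loader gene Mau2, the cohesin release factor gene Wapl and Zfp143. Stag1, another cohesin subunit gene, was called in none. Smchd1, a silencer of the cluster, was called in 3 libraries, and Dnmt3b, a DNA methyltransferase gene, in 1. These shares stand beside the background of 50.8%, 47.6% and 35.7% given above.

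Other clustered families also had few peaks at gene starts. Of 22 Hox genes with a known strand, both mTEClo libraries called 1 and both mTEChi libraries 0 within 1 kb of the start. Of 29 beta-defensin genes the counts were 0 and 1, and of 243 olfactory receptor genes of chromosome 2 they were 0 and 0. Those with a summit there in at least 1 library made up 31.8%, 34.5% and 9.88% of these families, beside 15.8% of the clustered protocadherins. Of protein-coding genes outside the cluster with a known strand, 58% had one. Both mTEClo libraries called 24.3% of those genes and both mTEChi libraries 23.7%. The differences were not tested. As a check of the labelled cell type, all 8 medullary epithelial markers (Epcam, Krt5, Krt14, Krt8, Foxn1, Aire, Cd80 and H2-Aa) were called within 5 kb of an end in all 4 libraries. Of 8 thymocyte markers 6, 6, 3 and 7 were called in library order, and 2 in all 4 libraries (Ptcra and Rag2). Of 6 B and myeloid cell markers 3, 3, 2 and 4 were called, and 1 in all 4 (Cd79a). Of all other protein-coding genes 68.5%, 59%, 59.2% and 63.4% were called in the same libraries and 35.7% in all 4, so the thymocyte shares of 75%, 75%, 37.5% and 87.5% lay above that background in 3 of 4 libraries and, at 25%, below it for all 4 together. By the rule of 1 kb from the start, 4, 5, 6 and 5 of the 8 epithelial markers were called in library order. These are 50%, 62.5%, 75% and 62.5%, against 42.6%, 31.1%, 34.2% and 32.7% of other genes. All 4 libraries called 1 of them there (12.5%), against 16%. Of 7 thymocyte markers with a known strand, 1, 1, 0 and 0 were called by this rule in library order. These are 14.3%, 14.3%, 0% and 0%. Of 3 B and myeloid cell markers, 0 were called in every library. Both sets thus lay below the shares of other genes by this rule, with few genes in each. A peak near a gene does not show that the gene was expressed, and what part other cells had in the cluster's peaks was not tested.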

How the data were processed

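The 4 lists of CUT&RUN peaks, 1 per library and not pooled, were analysed. The genome was mm10 and the tools named were MACS2 2.2.7.1, Bowtie2 2.2.9, SAMtools 1.9 and Picard, per the submitters' processing notes. How multi-mapping reads were treated, other settings and any control are not given in the sources used. The deposited score was read as a −log10 p-value or q-value of the authors' peak caller (minimum 2.00) and used only for ranks within a list. Every interval is 301 bp, a summit with 150 bp on each side. Lists hold no read counts, so depth is unknown.

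Nothing in the labels ties replicates to different animals; the p-values therefore cover only the spread between libraries, possibly technical. Members and lists were chosen with earlier results of these data known. Genes came from RefSeq (GRCm38.p6), whose table gives no strand; strand for 17492 other genes came from RefSeq promoter entries. The planned search of member promoter sequences was not run, and promoter sequences of members were not used here. Peaks overlapped when they shared at least 1 bp. The 2 states were set against each other with exact permutation of the libraries, two-sided. Named were members with a summit within 1 kb of the start in 2 or more libraries, regions of 2 or more libraries, members without a summit, group ends, neighbours within 50 kb and up to 6 genes per list; other members were named after their values were seen. Alternatives were score cuts, equal list lengths, other distances, each library left out and the replicate number as a block. Steps were tested on simulated data with planted peaks. Python 3.11.15, numpy 2.4.6, pandas 2.3.3 and matplotlib 3.10.9 were used.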

Additional observations from a re-analysis of the deposited data

How the results depend on the processing

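The differences between the states never passed 0.05 in the exact permutation test, since the smallest p is 0.333, and most were near 0, so their sign is not informative. The count of cluster peaks (-0.5, mTEChi minus mTEClo) turned to 0.5 with equal list lengths, with no window and with a 25 kb window, and ran from -5 to 4 with each library left out in turn. The share of a list turned from -0.000480 to 0.000721, 0.000644 and 0.000911 percentage points in those settings, and ran from -0.00385 to 0.00289 with a library left out. Sharing ran from -14.1 to 7.28 points, members with a summit within 1 kb of the start from -2.5 to 1.5, and members called within 5 kb of an end from -20.5 to 3.5, turned by mTEChi replicate 1. The replicate block left each difference as it was and gave exact p = 1 for each; the labels pair no libraries by number, and same-numbered libraries did not deviate together over 21887 gene calls (correlation -0.00716).

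Counts of members and regions depended more on the settings. Members called in both mTEClo libraries numbered 1 with the 10000 highest peaks, 43 with 25 kb and 6 from the start alone (a setting chosen after seeing the data). Those in both mTEChi libraries numbered 2 above the median score, 0 with the 10000 highest, 2 with 1 kb and 35 with 25 kb, and in all 4 libraries 2, 0, 2 and 35, and 1 from the start alone. With a library left out, these counts were taken over the libraries that remained, so a state could rest on 1 library. They then ran from 27 to 34, 8 to 36 and 6 to 24. The 36 and the 24 came without mTEChi replicate 1, and the 36 is the count of mTEChi replicate 2 alone. Regions in 2 or more libraries numbered 3 above the median, 6 at equal lengths, 2 with the 10000 highest and 3 with summits within 75 bp, and 5 to 9 with a library left out (5 without either mTEClo library). Regions in all libraries numbered 0 above the median, with the 10000 highest and within 75 bp, and 1 to 2 with a library left out. Cutting a list leaves fewer peaks to overlap. Depth is unknown, so what it limits was not tested.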
